A study of Mus musculus with 7 samples.

Results

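Apoa4, Apoa1, Apoc3 and Apoa5 are 4 apolipoprotein genes that lie side by side on mouse chromosome 9. All 4 were found by name among 19963 probe targets of the GeoMx mouse whole transcriptome assay, and all 4 were among the 13095 genes tested. Apoa4 was taken because it had the largest increase between the diets of all tested genes, with no background subtracted, and the other 3 because they are its neighbours. The difference between the diets in these 4 genes is therefore given as a description, without a test.

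RNA was measured in 6 areas of fixed liver sections from mice 24 weeks old, with 3 areas for NCD and 3 for FFD, diets named here as in the labels. Each diet had 3 mice according to the series text, but no label links an area to its mouse, so p-values measure the spread between areas, which may in part be technical. The deposited region comments mark all 6 areas as WT, and the labels state no treatment other than diet. Areas were chosen by Albumin staining and were not marked by CLEC4F, a Kupffer cell protein, and all lay on 1 slide. They are called regions NCD 1 to 3 and FFD 1 to 3. In this assay a bar-coded probe bound to a transcript is released by light from the chosen area and counted by sequencing.

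Apolipoproteins are the proteins that carry lipid through blood on lipoprotein particles. ApoA-I is the main protein of high density lipoprotein (HDL) and activates the enzyme LCAT, which esterifies cholesterol. ApoC-III slows the clearance of triglyceride-rich particles by inhibiting lipoprotein lipase, while ApoA-V favours that lipase. ApoA-IV travels on chylomicrons and HDL; in mice both intestine and liver make it, and in mouse liver the transcription factor CREBH (gene Creb3l3) is known to drive its gene during fasting and steatosis.

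The cluster spans 43.3 kb of GRCm38 chromosome 9, from 46228630 to 46271921. In order of position it holds Apoa1 (gene ID 11806, 46228630 to 46230469), Apoc3 (11814, 46233050 to 46235636), Apoa4 (11808, 46240844 to 46243458) and Apoa5 (66113, 46268608 to 46271921). Each target was read by 1 probe, and the position of a probe within its gene is not given in the sources used here. Each probe has its own efficiency, so a share of the counts given below is a share of probe counts, not of transcripts.

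The sequence just before the start of a gene is shown for Apoa4 and Apoa1, whose levels differed in opposite directions between the diets, and for Apoa5. Each stretch holds the 250 bases before the RefSeq start on the plus strand of GRCm38.p6, at chr9:46240594-46240843 for Apoa4, chr9:46228380-46228629 for Apoa1 and chr9:46268358-46268607 for Apoa5. Capitals mark motif matches.
Apoa4: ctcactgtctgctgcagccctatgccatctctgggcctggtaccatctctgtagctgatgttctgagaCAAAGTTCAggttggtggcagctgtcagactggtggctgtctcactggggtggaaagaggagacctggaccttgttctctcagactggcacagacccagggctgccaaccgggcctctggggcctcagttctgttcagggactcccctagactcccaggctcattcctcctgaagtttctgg
Apoa1: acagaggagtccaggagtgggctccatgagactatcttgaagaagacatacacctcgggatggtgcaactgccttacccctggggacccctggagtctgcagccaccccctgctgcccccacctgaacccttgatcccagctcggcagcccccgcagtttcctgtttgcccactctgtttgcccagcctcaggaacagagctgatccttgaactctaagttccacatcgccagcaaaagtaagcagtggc
Apoa5: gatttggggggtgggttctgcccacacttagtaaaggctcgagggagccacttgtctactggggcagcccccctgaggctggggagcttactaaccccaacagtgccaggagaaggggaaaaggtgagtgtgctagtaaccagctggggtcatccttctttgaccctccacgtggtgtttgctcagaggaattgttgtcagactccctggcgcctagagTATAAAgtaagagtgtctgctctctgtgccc
Apoc3 is named only. Both strands were searched for 6 motifs, TATAAA, CCACGTTG (a CREBH element), TGACGT (the core of a cAMP response element), CAAAGTCCA (an HNF4 element), AGGTCA (a nuclear receptor element) and CAAAGTNCA. The last holds CAAAGTCCA and was added after the sequences were seen. Apoa4 held CAAAGTTCA, a match to CAAAGTNCA, 182 bases before its start. Of 32851 stretches of the same length before RefSeq starts, 1.19% held CAAAGTNCA and 0.384% held CAAAGTCCA. Apoa5 held TATAAA 31 bases before its start, a motif found in 12.4% of the stretches. The Apoa1 stretch held none of the 6, and none of the 3 stretches held CCACGTTG (0.323% of all), TGACGT (6.47%) or AGGTCA (14%). A match is a description of letters, not a binding site.

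Apoa4 was low in every NCD region and high in every FFD region. Its counts were 106, 147 and 167 in NCD 1 to 3 and 13827, 5296 and 6510 in FFD 1 to 3. Levels are given below in CPM, counts scaled to a common library size, with upper quartile scaling, which brings the regions to 1 common 75th percentile. On this scale Apoa4 stood at 51.5, 61.8 and 52.4 CPM in NCD 1 to 3 and at 5271, 1651 and 2613 CPM in FFD 1 to 3. The lowest FFD region lay far above the highest NCD region, and the groups did not overlap. The means were 55.2 ± 5.72 CPM in NCD and 3179 ± 1875 CPM in FFD (SD, n = 3). The difference of mean log2 CPM, FFD minus NCD, was 5.69 with SDs of 0.15 in NCD and 0.84 in FFD, which is 51.5-fold. With FFD 1 left out the difference was 5.24.

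In NCD livers Apoa4 lay above background by a small factor, at 3.68, 4.65 and 4.11 times the negative probe level in NCD 1 to 3. Its counts were 1.84, 2.32 and 2.05 times the detection limit in NCD 1 to 3, where the limit is 2 times the level of the negative probes of that region. In FFD 1 to 3 they were 242, 90.7 and 122.6 times the limit. A count of 106 has a 95% exact Poisson interval of 86.8 to 128, which covers counting error only. With the negative probe level subtracted from each region the log2 difference was 5.98 in place of 5.69.

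Apoa1 went the other way. It stood at 18910.0, 19613 and 24318 CPM in NCD 1 to 3 and at 10085, 8560.1 and 12832 CPM in FFD 1 to 3. Every FFD region lay below every NCD region. The means were 20947 ± 2940.3 and 10492 ± 2165 CPM (SD, n = 3), and the log2 difference was -1.01 (SDs 0.20 and 0.29), or 2.01-fold lower in FFD. Its share of all counts of the tested genes was 2.01 ± 0.185% in NCD and 1.08 ± 0.172% in FFD. In such areas fewer hepatocytes and less RNA per hepatocyte cannot be told apart.

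Apoc3 overlapped between the diets. It stood at 1128, 1239 and 1579.7 CPM in NCD 1 to 3 and at 1923, 1470.1 and 1748 CPM in FFD 1 to 3. FFD 2 lay below NCD 3, and the other FFD regions lay above all NCD regions. The means were 1316 ± 235 and 1714 ± 229 CPM (SD, n = 3), a log2 difference of 0.39 (SDs 0.25 and 0.20).

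Apoa5 was somewhat higher in FFD, without overlap. It stood at 316, 377 and 357 CPM in NCD 1 to 3 and at 479, 426 and 517 CPM in FFD 1 to 3. The means were 350.0 ± 31.5 and 474 ± 45.8 CPM (SD, n = 3), and the log2 difference was 0.44 (SDs 0.13 and 0.14), or 1.35-fold. Over all 13095 genes 36.7% showed no overlap between the diets, 12.2% higher and 24.5% lower in FFD. The 3 cluster genes without overlap are read against that share only as a description, because this contrast chose Apoa4.

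**Figure D1:**
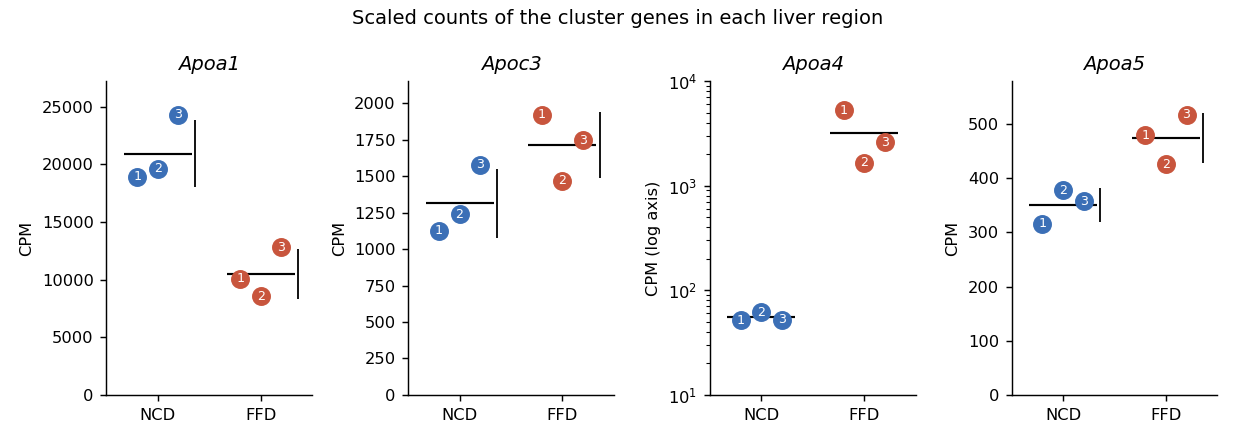
Scaled counts (CPM) of Apoa1, Apoc3, Apoa4 and Apoa5 in each region, with the replicate number in the point, NCD in blue and FFD in red; horizontal lines are means, vertical lines span the mean ± 1 SD (n = 3), and the Apoa4 axis is logarithmic and has no SD line. Apoa4 runs from 51.5 to 61.8 CPM in NCD and from 1651 to 5271 CPM in FFD, Apoa1 is lower in all FFD regions, and Apoc3 overlaps between the diets.

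The 4 genes held their signs under each of the scalings tried, with log2 differences from 5.69 to 6.08 for Apoa4, -1.12 to -0.62 for Apoa1, 0.28 to 0.78 for Apoc3 and 0.35 to 0.83 for Apoa5. These ranges also hold the background, filter and deposited Q3 signal alternatives. The median log2 fold change over all genes was -0.11 in the edgeR fit. Of 13095 genes, 1102 had a larger log2 fold change than Apoc3 and 863 a larger one than Apoa5, while 0.939% had a lower one than Apoa1.

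The ratio of 2 genes within a region does not depend on the scaling between regions. The count ratio of Apoa4 to Apoa1 was 0.00273, 0.00315 and 0.00215 in NCD 1 to 3 and 0.523, 0.193 and 0.204 in FFD 1 to 3. FFD 1 had the highest ratio, and the groups did not overlap. The log2 difference of this ratio was 6.69 (SDs 0.28 and 0.81), or 104-fold, and 6.23 without FFD 1. The ratio of Apoc3 to Apoa1 was 0.0596, 0.0632 and 0.0650 in NCD 1 to 3 and 0.191, 0.172 and 0.136 in FFD 1 to 3. Thus Apoc3, which overlapped between the diets on its own, did not overlap relative to Apoa1, with a log2 difference of 1.40 (SDs 0.06 and 0.25). The log2 difference of Apoa1 itself was -1.01, so a gene without change would also rise in a ratio to Apoa1. The share of all genes that separate between the diets in such a ratio was not counted. The ratio of Apoa5 to Apoa1 was 0.0167, 0.0192 and 0.0147 in NCD 1 to 3 and 0.0475, 0.0497 and 0.0403 in FFD 1 to 3, a log2 difference of 1.45 (SDs 0.19 and 0.16). Apoc3 and Apoa5 kept about the same ratio to each other in both diets. That ratio was 3.57, 3.28 and 4.42 in NCD 1 to 3 and 4.02, 3.45 and 3.38 in FFD 1 to 3, with overlap and a log2 difference of -0.05 (SDs 0.22 and 0.14).

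**Figure D2:**
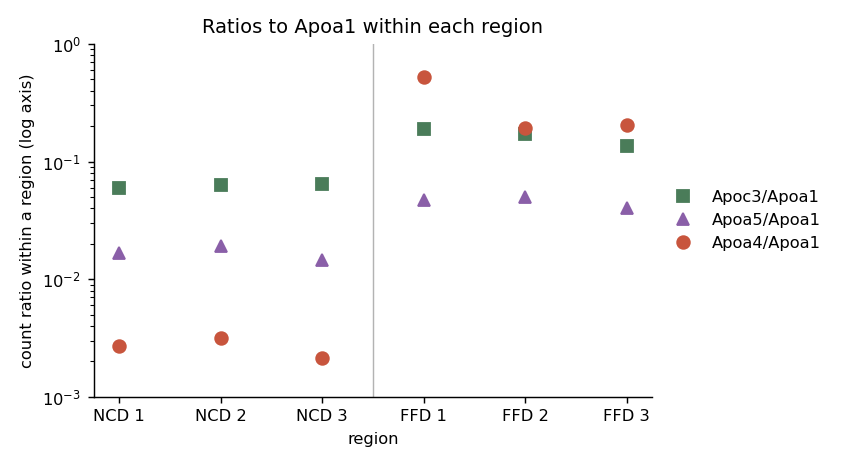
Count ratio of Apoc3, Apoa5 and Apoa4 to Apoa1 within each region on a logarithmic axis, NCD regions on the left and FFD regions on the right. All 3 ratios are higher in every FFD region, and the Apoa4 ratio moves from 0.00215 to 0.00315 in NCD to 0.193 to 0.523 in FFD.

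The make-up of the counts of the cluster changed with these ratios. Apoa4 gave 0.253, 0.290 and 0.199% of the counts of the 4 genes in NCD 1 to 3 and 29.7, 13.6 and 14.8% in FFD 1 to 3. Apoa1 gave 92.4 ± 0.279% in NCD and 66.6 ± 8.58% in FFD (SD, n = 3). The 4 genes together took 2.03, 2.09 and 2.40% of all counts in NCD 1 to 3 and 1.87, 1.30 and 1.75% in FFD 1 to 3. Every FFD region lay below every NCD region in this sum of probe counts. Without Apoa1 the other 3 genes took 0.165 ± 0.0165% in NCD and 0.558 ± 0.224% in FFD.

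Among the 4 genes the FFD regions varied most in Apoa4. Its highest FFD region was 3.19 times its lowest, against 1.1997 times in NCD. Its SD of log2 CPM in FFD, 0.84, was larger than that of 99.7% of the tested genes, whose median was 0.17. In NCD its SD of 0.15 was below the median of 0.17. The highest FFD region was 1.499 times the lowest for Apoa1, 1.31 times for Apoc3 and 1.21 times for Apoa5. FFD 1 was highest for Apoa4 and Apoc3, and FFD 3 for Apoa1 and Apoa5, while FFD 2 was lowest for all 4. Target counts exceeded the deduplicated reads by a factor of 1.196, 1.51 and 1.01 in FFD 1 to 3, against 0.996 to 0.997 in NCD. The part of that excess in the low values of FFD 2 was not tested.

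Log2 fold changes of the tested genes around the cluster lay between -0.56 and 0.37. Of 11 targets that start within 500 kb, 8 were tested. Their NCD means ran from 31.7 CPM (Pcsk7) to 71.6 CPM (Zpr1), so background is part of these levels. With background subtracted 0 passed as well. Of the 8 tested genes that start within 500 kb of the cluster, 0 passed the edgeR quasi-likelihood test at an adjusted p under 0.05, where 17.1% of all tested genes passed (5.94% higher and 11.1% lower). At an unadjusted p under 0.05 the count was 2 with edgeR, 1 with DESeq2 and 1 with limma, and DESeq2 and limma also called 0 after adjustment. The median log2 fold change of the 8 was 0.01, against -0.11 for all genes. Sidt2 was called lower without NCD 3, and 1 gene was called higher without FFD 2.

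Zpr1, a zinc finger protein gene, starts 1.14 kb beyond Apoa5 and is the only tested neighbour on that side. It stood at 53.0, 53.4 and 108 CPM in NCD 1 to 3 and at 57.2, 43.3 and 48.2 CPM in FFD 1 to 3. NCD 3 alone stood high, and the log2 fold change was -0.56 (SE 0.23, edgeR adjusted p = 0.0970). On the other side Sik3, a salt-inducible kinase gene, ends 4.44 kb before Apoa1 and stood at 42.3 ± 6.65 CPM in NCD and 45.7 ± 5.21 CPM in FFD (log2 0.10, SE 0.15, edgeR adjusted p = 0.667). It was called higher under negative probe scaling alone (edgeR adjusted p = 0.0384, range over the alternatives 0.0384 to 0.942). Pafah1b2, a subunit gene of a platelet-activating factor acetylhydrolase, had a log2 fold change of 0.03 (SE 0.13), from 40.0 ± 1.74 to 41.0 ± 2.44 CPM. Sidt2, a lysosomal membrane protein gene, was at 70.5 ± 6.87 CPM in NCD and 53.5 ± 5.59 CPM in FFD (log2 -0.39, SE 0.13, edgeR adjusted p = 0.0569). It passed without NCD 3 (edgeR adjusted p = 0.0293, range over the alternatives 0.0293 to 0.975), and its sign turned under negative probe scaling, at 0.01.

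**Figure D3:**
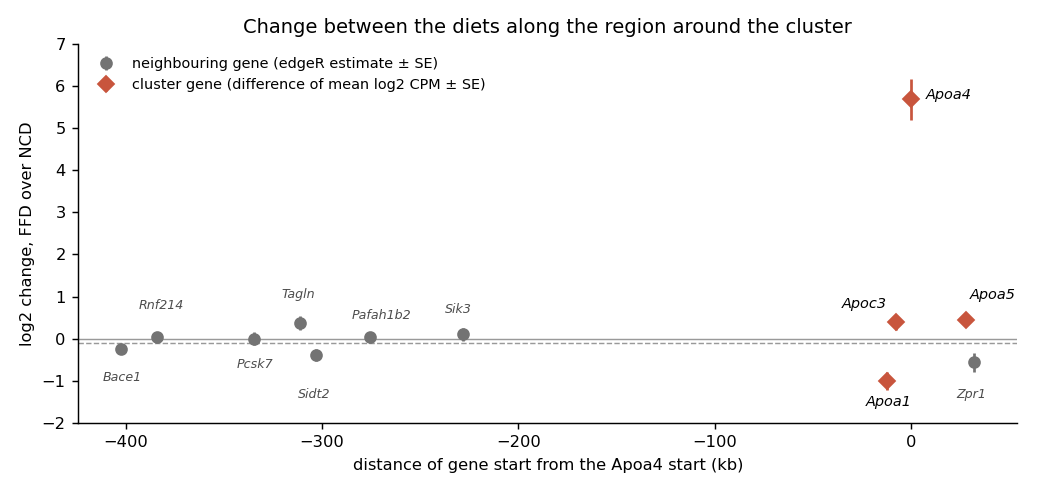
Log2 change between the diets against the distance of each gene start from the Apoa4 start, for the 4 cluster genes (red diamonds, difference of mean log2 CPM ± SE) and the 8 tested neighbours within 500 kb (grey, edgeR estimate ± SE); the dashed line is the median of all tested genes, -0.11. Apoa4 stands at 5.69 and Apoa1 at -1.01, while the neighbours lie between -0.56 and 0.37.

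Of the apolipoproteins encoded elsewhere, 8 of 11 did not pass the test, 1 rose and 2 fell at an edgeR adjusted p under 0.05, against 5.94% higher and 11.1% lower over all 13095 genes, and their median log2 fold change was -0.02. Apoc2, the activator of lipoprotein lipase, stood at 288, 287 and 334 CPM in NCD 1 to 3 and at 936, 661 and 1018 CPM in FFD 1 to 3. It rose by 1.52 on the log2 scale (SE 0.18, edgeR adjusted p = 4.08e-05), and its probe is also assigned to the predicted gene Gm44805. Apom, the HDL carrier of sphingosine phosphate, went from 326 ± 57.5 to 125 ± 33.7 CPM and fell by 1.39 (SE 0.19, edgeR adjusted p = 0.000168). Apod, a lipocalin, lay under the detection limit in all 6 regions, with a log2 change of -0.62 (SE 0.20, edgeR adjusted p = 0.0472). Its call was lost in 13 of 15 alternatives (adjusted p 0.0221 to 0.420), so that 1 gene of the list was lower when any region other than FFD 3 was left out. Without NCD 3, 2 of the list were higher. Apoa2, the second protein of HDL, was at 12240.5 ± 1505 CPM in NCD with a log2 change of 0.02 (SE 0.22, edgeR adjusted p = 0.963), chosen after its value was seen as the HDL partner of Apoa1.

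Of 24 tested genes for factors known to act on the cluster 2 rose, 4 fell and 18 did not pass the edgeR test, with a median of -0.05. Of all tested genes 5.94% were higher and 11.1% lower, and the counts of this list lie near those shares. Creb3l3, which encodes CREBH, stood at 156, 194 and 211 CPM in NCD 1 to 3 and at 186, 187 and 173 CPM in FFD 1 to 3. The FFD values lay inside the NCD range (log2 -0.04, SE 0.14, edgeR adjusted p = 0.876), and none of the 16 alternatives called it (adjusted p 0.155 to 0.985). CREBH is activated by cleavage of its protein, which these counts do not measure.

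Hnf4a, the hepatocyte nuclear receptor that binds apolipoprotein promoters, stood at 342, 334 and 341 CPM in NCD 1 to 3 and at 211, 241 and 261 CPM in FFD 1 to 3. It fell by 0.51 (SE 0.14, edgeR adjusted p = 0.0207), and the call was lost in 10 of 16 alternatives, TMM scaling among them (adjusted p 0.0128 to 0.677). Nr1d1, the clock repressor REV-ERB alpha, which represses Apoa1 in rat and Apoc3 in mouse liver, fell by 0.79 (SE 0.13, edgeR adjusted p = 0.00113), from 259.7 ± 10.98 to 150.4 ± 12.6 CPM. Its call was lost with negative probe scaling (adjusted p = 0.0883, range over the alternatives 0.000453 to 0.0883). Ppara, the nuclear receptor of fatty acid breakdown, rose by 0.44 (SE 0.13, edgeR adjusted p = 0.0359), a call lost in 5 of 16 alternatives (adjusted p 0.00102 to 0.160). Foxa3, a forkhead factor of liver, fell by 0.47 (SE 0.15, edgeR adjusted p = 0.0475), a call lost in 14 of 16 (adjusted p 0.0291 to 0.770). The count of 2 higher was 0 without NCD 1, NCD 2, FFD 2 or FFD 3 and 1 without NCD 3. The count of 4 lower was 1 without NCD 1, NCD 2 or FFD 2 and 2 without NCD 3 or FFD 1.

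Genes reported as CREBH targets, other than those of the cluster, moved in both directions. Of 14 tested, 5 rose, 2 fell and 7 did not pass the edgeR test, and the median was 0.38 against -0.11 for all genes. Over all genes 5.94% were called higher and 11.1% lower. Besides Apoc2, the lipid droplet gene Cidec stood at 28.7, 14.3 and 18.2 CPM in NCD 1 to 3 and at 214, 125 and 138 CPM in FFD 1 to 3. It rose by 2.98 (SE 0.24, edgeR adjusted p = 9.55e-07) and lay above the detection limit in 1 of 3 NCD regions. With background subtracted its log2 change was 4.39. Cpt1a, which admits fatty acids to mitochondria, rose by 0.97 (SE 0.14, edgeR adjusted p = 0.000343), from 188 ± 2.03 to 369.6 ± 44.0 CPM. G6pc, the glucose phosphatase, fell by 1.28 (SE 0.18, edgeR adjusted p = 0.000196). Fgf21, a liver hormone gene that CREBH is known to drive, had counts of 26 to 40 in NCD and 29 to 49 in FFD, under the detection limit in every region, and was not tested. The number higher was 3 without NCD 1, NCD 2 or FFD 1.

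The high FFD 1 value of Apoa4, relative to the other FFD regions, was shared by some genes of that list, which were picked out after their values were seen. Apoa4 in FFD 1 was 2.47 times the mean of FFD 2 and FFD 3. The same ratio was 2.58 for Elovl5 and 1.998 for Fads2, an elongase and a desaturase of polyunsaturated fatty acids, 2.03 for the desaturase Fads1 and 2.32 for Insig2, which holds back sterol-regulated transcription factors. Cidec had a ratio of 1.63. In FFD 2 Apoa4 stood at 1651 CPM against an NCD mean of 55.2 CPM. Elovl5 and Fads2, at 96.3 and 529 CPM in FFD 2, lay inside their NCD ranges (74.9 to 124 and 358 to 579 CPM). Fads1 and Insig2, at 198 and 113 CPM in FFD 2, lay below every NCD region. These 2 genes did not pass the edgeR test (adjusted p = 0.424 and 0.124). The order of Apoa4, with FFD 1 above FFD 3 and FFD 3 above FFD 2, was found in 6 of these 14 genes and in 17.8% of all 13095 genes, whose median ratio was 1.02. It was also found in 9 of 24 assembly and turnover genes, 2 of 11 apolipoproteins and 2 of 24 regulators. Pck1 of the list had a ratio of 0.386, so FFD 1 was not high for every member. The other cluster genes had ratios of 0.943 (Apoa1), 1.195 (Apoc3) and 1.02 (Apoa5).

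**Figure D4:**
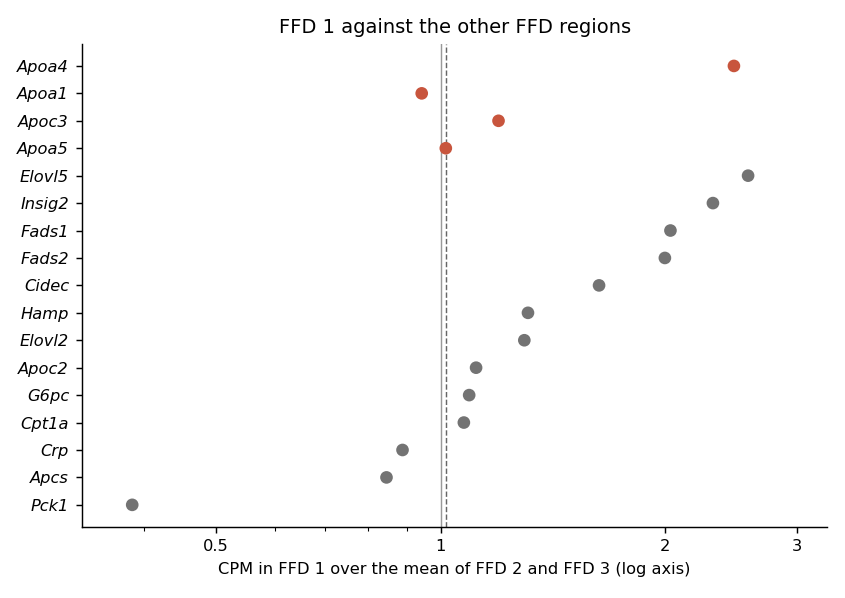
CPM in FFD 1 over the mean of FFD 2 and FFD 3, on a logarithmic axis, for the 4 cluster genes (red) and 13 of the 14 tested CREBH targets outside the cluster (grey); the solid line is 1 and the dashed line the median of all tested genes, 1.02. Apoa4 at 2.47, Elovl5 at 2.58 and Insig2 at 2.32 stand highest, and Pck1 at 0.386 lowest.

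Genes that assemble, remodel or clear lipoproteins gave 3 higher, 2 lower and 19 not past the edgeR test of 24, with a median of -0.09. The 5 called of 24 lie near the 17.1% called in either direction over the whole table. Angptl8, a secreted inhibitor of lipoprotein lipase, stood at 292, 344 and 243 CPM in NCD 1 to 3 and at 62.5, 65.8 and 92.7 CPM in FFD 1 to 3, and fell by 1.99 (SE 0.18, edgeR adjusted p = 3.00e-06). Lpl, the lipase that ApoC-III inhibits, rose by 1.04 (SE 0.26, edgeR adjusted p = 0.0139), from 19.8 ± 2.75 CPM, below the limit in each NCD region, to 40.7 ± 18.3 CPM. With background subtracted its log2 change was 2.16. Lpl is also on the list of lipid-associated macrophage markers given below. Pltp, the phospholipid transfer protein, rose by 0.53 (SE 0.16, edgeR adjusted p = 0.0332), a call lost in 5 of 16 alternatives (adjusted p 0.000513 to 0.177). The number higher was 1 without NCD 1, NCD 2, FFD 2 or FFD 3, and the number lower was 4 without FFD 1.

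**Figure D5:**
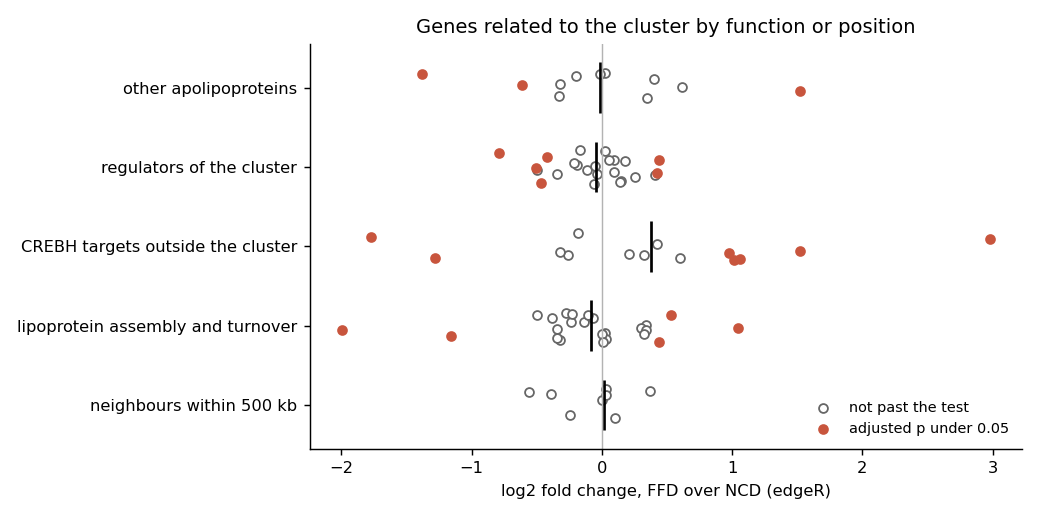
Log2 fold change, FFD over NCD, of each tested gene in the 4 pathway lists and among the neighbours of the cluster; filled red points passed at an edgeR adjusted p under 0.05, open points did not, vertical bars are list medians and vertical scatter carries no value. Cidec at 2.98 and Apoc2 at 1.52 stand highest, and Angptl8 at -1.99 lowest.

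Likeness to each cluster gene was measured as the root mean square difference of log2 CPM over the 6 regions, each gene set to 0 at its own NCD mean, among 8063 genes above the detection limit in all FFD regions. The measure uses the same difference between the diets that chose Apoa4, so nearness to it is a description. None of these lay within 0.25 log2 units of Apoa4. The nearest was Lcn2, an acute phase protein gene, at 1.34 log2 units, and next came Saa1 at 1.76, Spp1 at 1.81, Mmp12 at 1.85 and Saa2 at 1.94. Lcn2 stood at 12.6, 9.67 and 10.03 CPM in NCD 1 to 3 and at 156, 153 and 187 CPM in FFD 1 to 3, without the high FFD 1 value of Apoa4. Lcn2 and Mmp12 were below the limit in each NCD region, so their distance and rank rest on background there. With background subtracted the log2 fold change went from 3.95 to 8.36 for Lcn2 and from 3.69 to 6.92 for Mmp12. Lcn2 lay under the negative probe level in each NCD region, where its values were set to a floor of 1, and Mmp12 lay near that level. The value of 8.36 thus depends on the floor chosen. Apoa4 was at 5.98 in that setting, below both genes. Saa1 and Saa2 are near copies whose probes may share transcripts. For Apoa1 the nearest were the carboxylesterase gene Ces1c at 0.10 and Serpinf2, which encodes alpha-2-antiplasmin, at 0.10. Ces1c stood at 2209, 2295 and 2558 CPM in NCD 1 to 3 and at 1063, 899 and 1605 CPM in FFD 1 to 3. In all, 50 genes lay within 0.25 of Apoa1, 1521 within that distance of Apoc3 and 1743 of Apoa5, so nearness to the last 2 sets few genes apart. Their nearest were Atp5a1 and Mdh2 for Apoc3, both mitochondrial enzymes, at 0.04 and 0.05, and Cyrib and Armcx3 for Apoa5 at 0.03 and 0.04. Within the cluster Apoc3 and Apoa5 were nearest to each other at 0.15, and Apoa4 and Apoa1 farthest apart at 4.76.

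Measures of the regions moved with diet beside these genes. Alb, the gene of the staining target, took 5.65 to 7.74% of counts in NCD and 2.95 to 4.93% in FFD, with a log2 change of -0.93 (SE 0.33, edgeR adjusted p = 0.0648). Alb passed in 3 of 16 alternatives, when FFD 3 was left out (log2 -1.25, edgeR adjusted p = 0.0117), with the DESeq2 Wald test (adjusted p = 0.00687) and with the replicate block (edgeR adjusted p = 0.00268), with a range of 0.00268 to 0.228. The counts of markers that follow stand against 5.94% higher and 11.1% lower over all genes. Of 9 tested hepatocyte markers 3 fell, 1 rose and 5, Alb among them, did not pass (summed levels 75874 to 112418 CPM in NCD and 41710 to 73282 CPM in FFD). Most of each sum was Alb, with means of 67704 CPM in NCD and 35657 CPM in FFD, so the sums largely repeat its values. Lipid-associated macrophage markers rose in 9 of 9 tested of 10 listed, with summed levels of 247 to 253 CPM in NCD and 1165 to 1689 CPM in FFD. Only 2 of them exceeded the detection limit in every NCD region, against 9 in every FFD region, so the NCD levels rest in part on background. Stellate cell and fibroblast markers rose in 6 of 10 (539 to 588 against 912 to 1482 CPM), and Kupffer cell markers rose in 5 of 10 while 1 fell (850.4 to 1135 against 1273 to 1867 CPM). The 5 were C1qa, C1qb, Cd68, Adgre1 and Cd5l, and Timd4 fell (log2 -0.68, edgeR adjusted p = 0.0489). Clec4f (log2 -0.003), Vsig4 (0.39), Csf1r (0.41) and Marco (-0.54) did not pass, so the Kupffer cell list did not move as a whole. Endothelial markers gave 1 higher and 1 lower of 6 tested (374 to 425 against 298 to 437 CPM), and cholangiocyte markers 1 higher and 1 lower of 4 (118 to 152 against 106 to 184 CPM). Of 6 tested lymphocyte markers 1 fell (138 to 192 against 113 to 131.5 CPM). No marker on these lists was at 0 in any region, but negative probes also gave counts (26.6 to 40.7). Markers above the detection limit in every NCD region numbered 5 for stellate cells and fibroblasts, 10 for Kupffer cells and 9 for hepatocytes. They numbered 5 for endothelium, 0 for cholangiocytes and 1 for lymphocytes. In every FFD region the numbers were 9, 8, 9, 6, 0 and 0 in the same order. Levels of markers under the limit rest in part on background. Nuclei per region were 1747 to 1940 in NCD and 1077 to 1264 in FFD. The surface areas of the regions were also smaller in FFD, at 415513 to 446026 against 495745 to 508483 in NCD (unit not given). The part of these shifts in the levels of the cluster genes was not tested.

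Intestinal epithelium is the other main source of Apoa4 and of Apoa1. Of its 12 markers 2 exceeded the detection limit in each NCD region and 3 in each FFD region, none was at 0 in any region, and 4 were tested. Summed levels were 351 to 364 CPM in NCD and 431 to 524 CPM in FFD, and most of that rise came from Fabp2. Fabp2, the intestinal fatty acid binding protein, rose by 1.40 (SE 0.17, edgeR adjusted p = 4.86e-05), from 69.5, 76.1 and 95.01 CPM in NCD 1 to 3 to 241, 169 and 228 CPM in FFD 1 to 3. The other 3 tested markers did not pass, with log2 changes of -0.49 for Lct (edgeR adjusted p = 0.0614), 0.10 for Lgals4 and 0.16 for Anpep. Fabp2 and Anpep were the 2 markers above the limit in each NCD region. The intestinal genes Cdx1 and Cdx2 had counts of 11 to 46, under the detection limit in every region.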

How the data were processed

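Per the series text and the labels, hepatocyte areas were profiled with GeoMx probes and Illumina sequencing. The deposited count tables hold, for each target, expected counts (4 targets are not whole numbers) after probe quality control by the authors. A deposited filtered table holds 13099 of 19963 targets, and its rule is not given in the sources used here. It was used without 4 targets that are not genes (0.0145 to 0.0192% of counts for all 12 such targets of the full table), and 3 non-whole targets were rounded. The deposited Q3 table holds a signal, filtered counts divided by the 75th percentile of each region. Nuclei and reads are counts per the file headers, per the file headers saturation is given as a percent (99.1 to 99.3), and area and probes per target are other quantities per the file headers. The submitters' processing notes name the build GRCm38 and the tool edgeR, without their roles. Counts per region over 13095 tested genes were 2069101, 2417341 and 3491372 in NCD 1 to 3 and 2484981, 2980639 and 2527500.0 in FFD 1 to 3.

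Counts were fitted with edgeR 4.0.16 (glmQLFit, glmQLFTest, R 4.3.3), upper quartile scaling, a design with diet alone, and p-values adjusted by Benjamini-Hochberg across the 13095 genes (threshold 0.05). SEs are the absolute log2 fold change over the square root of the F statistic. For the 4 cluster genes differences of mean log2 CPM are given without a test. Positions come from the RefSeq table of GRCm38.p6 (13074 of 13095 gene IDs matched), as do sequences (3 of 4 genes). The fit was run on simulated counts with 1 common spread for all genes and both diets. It recovered 92 of 100 changes of 1 log2 unit and made 9 false calls among 13095 genes. Real genes differ in spread, so this checks the code and not the error rate in these data. From each of 4 pathway lists up to 4 members past the test with the smallest p were named, with Creb3l3, Hnf4a, Alb, the nearest neighbours (up to 3 on a side) and the genes most like each member; other genes named were chosen after their values were seen. Marker lists numbered 8. Members and lists were chosen with earlier results of these data known. The alternatives were TMM, DESeq2 1.42.0 size factors, total counts, negative probes, background subtraction (values under 1 set to 1), no filter, filterByExpr, the DESeq2 Wald test, limma 3.58.1 on the Q3 signal, other windows, and each region left out. The no template library is not used, and some list members that are counted are not reported here by name.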

Additional observations from a re-analysis of the deposited data

How the results depend on the processing

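The 3 ratios to Apoa1 and the Apoa4 difference moved by less than 1 SD under every alternative run. Leaving out each region in turn gave log2 differences of 5.24 to 6.08 for Apoa4, -1.16 to -0.87 for Apoa1, 0.28 to 0.53 for Apoc3 and 0.36 to 0.51 for Apoa5. Negative probe scaling, under which the median of all genes was 0.28 in place of -0.11, gave -0.62 for Apoa1, 0.78 for Apoc3 and 0.83 for Apoa5. It called 3632 genes higher and 206 lower in place of 778 and 1459, with 2 neighbours higher, 4 apolipoproteins higher and 1 lower, 7 regulators higher and 0 lower, 9 CREBH targets higher and 7 assembly and turnover genes higher. Genes called lower over the whole table numbered 893 with TMM, 894 with DESeq2 size factors, 604 with total counts, 795 with background subtracted and 467 with the DESeq2 Wald test. Genes called higher made up 34.8% of calls in the fit reported, 56.0% with TMM, 55.9% with DESeq2 size factors, 65.1% with total counts, 94.6% with negative probes, 47.6% with background subtracted and 62.0% with the DESeq2 test. Apolipoproteins gave 1 lower with TMM, DESeq2 size factors, total counts, background subtracted, no filter, filterByExpr, the DESeq2 test and limma, and 3 higher with total counts and the DESeq2 test. Regulators gave 1 lower with TMM, DESeq2 size factors, no filter, filterByExpr and the DESeq2 test, 2 lower with total counts and background subtracted, 0 higher with background subtracted, and 1 higher with the DESeq2 test and limma. CREBH targets gave 3 higher with background subtracted and the DESeq2 test, and assembly and turnover genes 5 higher with total counts and 1 higher with background subtracted. Leaving out each region in turn gave 396 to 853 genes higher (486 without NCD 1 and 396 without NCD 2) and 617 to 1778 lower (704 without NCD 1, 617 without NCD 2 and 821 without FFD 2), 0 to 1 neighbours higher and 0 to 1 lower, 1 to 2 apolipoproteins higher and 1 to 2 lower, 0 to 2 regulators higher and 1 to 4 lower, 3 to 6 CREBH targets higher, and 1 to 4 assembly and turnover genes higher and 2 to 4 lower. The cause of these shifts was not tested. GEO's labels number the regions 1 to 6 and pair none of them; the deposited region comments number them 1 to 3 within each diet. With that number as a replicate block, added after seeing the data, 1 neighbour was lower and 2 apolipoproteins were higher; correlations of deviations between regions of the same number were 0.01, 0.04 and 0.07, so the numbers are not taken as pairs. Of the genes most like Apoc3, 1 of 2 was shared when profiles were centred on all 6 regions. Windows of 250 and 1000 kb, with 2 and 9 tested genes, also held 0 called neighbours, but these windows share genes with the 500 kb window. Of 495 comparisons of 31 named genes with an alternative, 53 lost a call, 14 gained one and 0 reversed. Counting error is under 10% for Apoa4 in NCD (9.71% at the lowest count) and at most 3.93% for the other 3 genes.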
